A study of Mus musculus with 6 samples.

Results

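The genes described here are 63 mouse genes of the Wnt pathway, out of 19938 genes that had a single symbol on the array: 19 Wnt ligands, 10 Frizzled receptors, 5 coreceptors and alternative receptors, 10 secreted inhibitors, 6 genes of the R-spondin branch (R-spondins, a receptor and ubiquitin ligases), 7 cytoplasmic regulators, 3 TCF/LEF factors, 2 Wnt-induced CCN proteins and 1 transcript from the opposite strand of Fzd10 (Fzd10os). They were taken by name from the symbols of the platform annotation, and each gene is represented by its brightest probe set. The choice of this set was made with earlier results of these data known. Of these genes, 61 were found by their current platform symbol, and the other 2, Wisp1 and Wisp2, under their newer symbols Ccn4 and Ccn5. Tcf7, which was also on the list, was not analysed here. Fzd10os was taken by the name pattern for Frizzled receptors and is included in the counts over all 63 genes, but not among the 10 receptors. Expression was measured in NIH/3T3 cells, an established line of mouse embryonic fibroblasts, which carried an HA-tagged mouse RPB1, the subunit of RNA polymerase II with the catalytic site and the repeated C-terminal tail. In 8KR cells (3 arrays) every lysine at the seventh position of the heptad repeats of its C-terminal domain had been changed to arginine, which cannot be acetylated. In wild type cells (3 arrays) these lysines were intact. Both kinds of cell were stable transfectants grown in 10% bovine calf serum with 2 µg/ml α-amanitin, a mushroom toxin that blocks this polymerase, and the comparison asked which RNAs are dysregulated when this acetylation is lost. The replicates are called biological, but whether each group was 1 clone or 1 pool of transfected cells was not stated in any source used here, so the p-values measure only the spread between these arrays. The labels name no added Wnt protein or inhibitor of the pathway.

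Wnt proteins are secreted lipid-modified ligands that bind Frizzled receptors at the cell surface. With the coreceptors Lrp5 and Lrp6 they stop a cytoplasmic complex of Axin, Apc and the kinase Gsk3b from marking β-catenin (Ctnnb1) for degradation, and β-catenin then acts in the nucleus with TCF/LEF factors on target genes such as Axin2. Other branches run through Ror and Ryk receptors and the planar cell polarity proteins without β-catenin. Secreted proteins of the Sfrp and Dkk families and Wif1 restrain the pathway outside the cell, whereas R-spondins strengthen it by removing the ubiquitin ligases Znrf3 and Rnf43, which otherwise clear Frizzled receptors from the membrane. In fibroblasts the pathway is known for its part in growth, matrix production and wound repair.

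The deposited values are log2 intensities, 1 for each probe set and array. Array medians lay between 4.49 and 4.54 over 35557 probe sets, and arrays correlated at 0.982 to 0.984 within a group and at 0.975 to 0.978 between groups. Polr2a, the gene of RPB1, stood at 12.12, 12.13 and 12.13 on the 8KR arrays and at 12.10, 12.11 and 12.09 on the wild type arrays, a signal in which the introduced and the cells' own transcript are not told apart. All 11 fibroblast markers examined had a group mean above 5.0. Their mean level per array was 9.89 to 9.90 in 8KR cells and 10.04 to 10.16 in wild type cells. Col3a1 and Sparc were lower in 8KR cells by limma (adjusted p = 0.0364 and 0.0188). Of the 11, 9 had differences below 0, and 5 had an unadjusted p under 0.05, all lower, where 21.8% of all tested genes reached it. The arrays of 8 (72.7%) did not overlap, 7 with 8KR below and 1 above, against 29.7% of all tested genes. None of the epithelial, myeloid, endothelial, adipocyte, skeletal muscle or neural markers tested passed limma's test (1 epithelial, 1 endothelial, 1 adipocyte and 1 muscle marker had an unadjusted p under 0.05). The mean level of each of these lists lay between 3.33 and 4.33 on every array. In these lists 1 epithelial (Krt8), 1 myeloid (Cd68), 1 muscle (Des) and 1 neural marker (Sox10) had a group mean above 5.0 too. Whether the lower fibroblast markers had a part in the differences below was not tested. In bulk RNA, fewer cells expressing a gene cannot be told apart from less RNA in each cell.

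Of the 63 Wnt genes, 62 passed the filter, a group mean above 3.0 on the log2 scale, and were tested with limma. Only Frzb, a secreted Frizzled-related inhibitor, fell under it, with 2.78, 2.89 and 2.97 on the 8KR arrays and 2.56, 2.51 and 2.66 on the wild type arrays. A gene is described as called at an adjusted p under 0.05 over all probe sets tested. Because the set was chosen with earlier results of these data known, the shares below are a description and no test of the pathway. Of the Wnt genes 7 of 62 were called (11.3%), against 5.39% of all 17145 tested genes. Of these, 4 were higher in 8KR cells (Wnt2, Fzd1, Fzd2 and Dkk3; 2.33% of all tested genes were called higher) and 3 were lower (Sfrp1, Tcf7l2 and Ccn5; 3.06% of all tested genes were called lower). With each array centred on its median, 2 Wnt genes were called higher and the same 3 lower. The median difference over the 62 genes was -0.00, with 30 genes above and 32 below 0, and the median over all tested genes was 0.01. The Wnt genes therefore had no common direction. Arrays of the 2 groups did not overlap for 19 of the 62 genes (30.6%), close to the 29.7% of all tested genes, and an unadjusted p under 0.05 was reached by 16 of them, 8 in each direction, where 21.8% of all tested genes reached it. Only 26 of the 62 genes had a group mean above 5.0, so many of the ligands and secreted inhibitors were measured near the low end of the scale. Levels of different genes are not set against each other, because each probe set binds with its own strength.

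**Figure D1:**
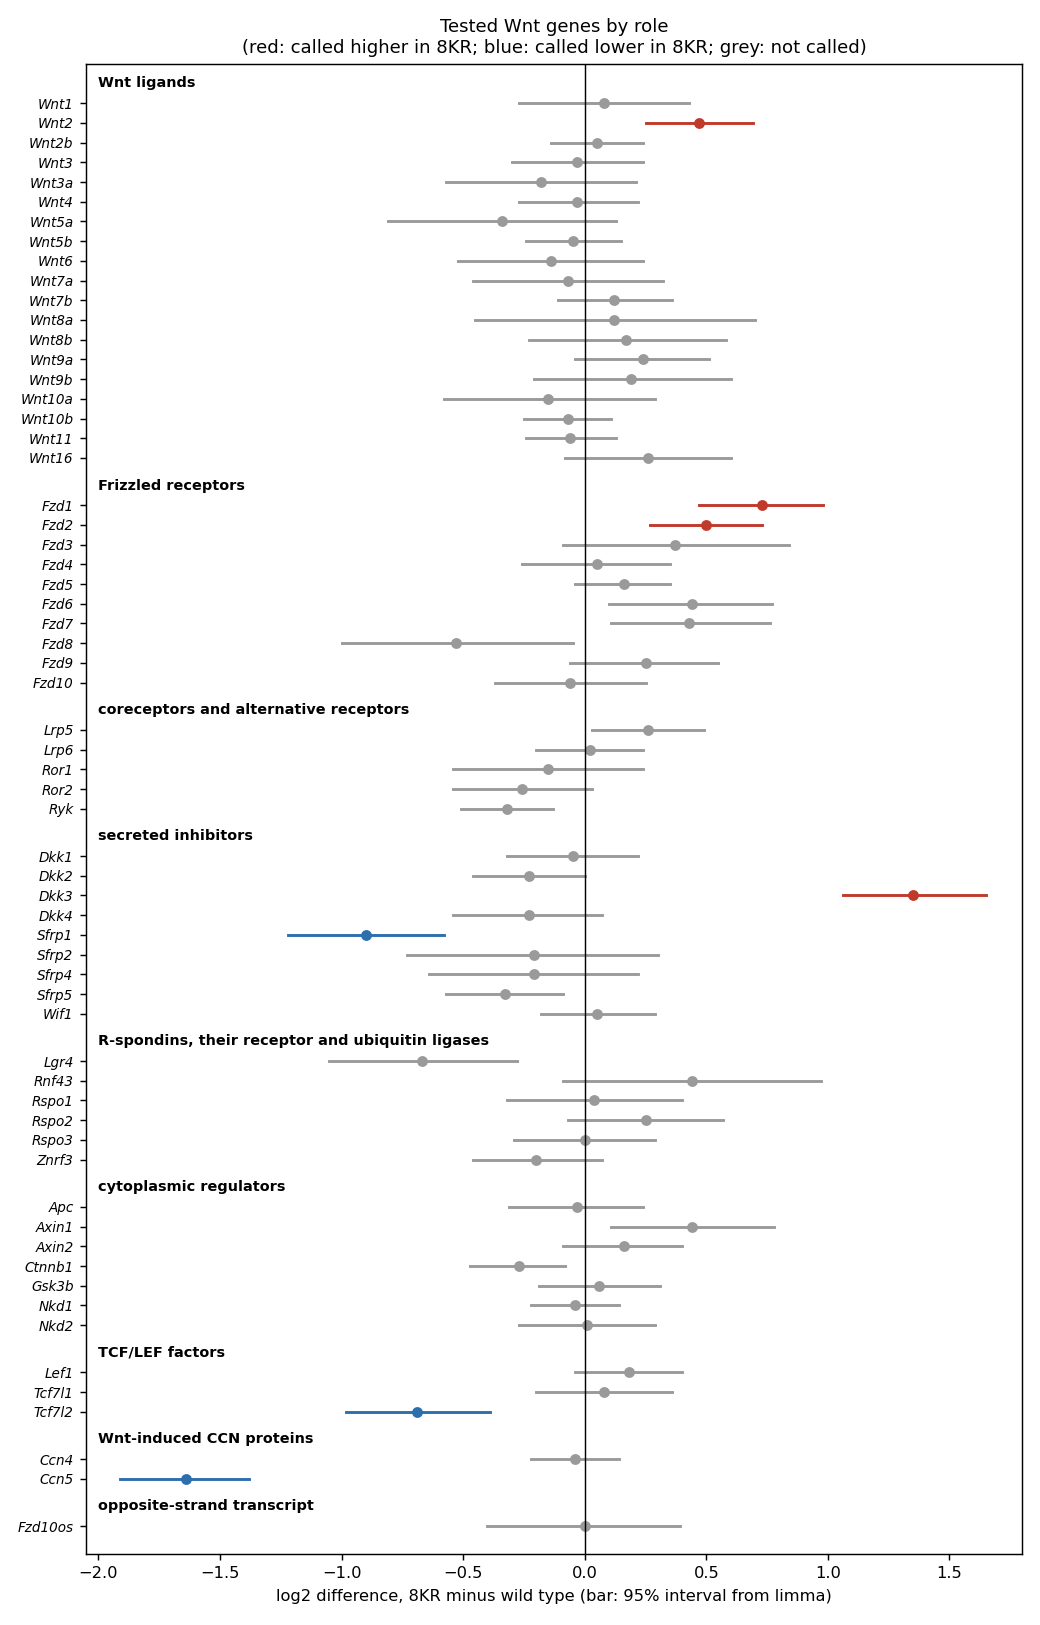
Log2 difference between 8KR and wild type cells for each tested Wnt gene (points, 8KR minus wild type, with the 95% interval from limma as bars), grouped by role. The 4 genes called higher are in red, 3 called lower are in blue, and the 2 largest differences belong to Ccn5 at -1.64 and Dkk3 at 1.35.

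For 3 of the 7 called genes the start region was at hand in the RefSeq promoter table of build GRCm38.p6. The 250 bases before the start are shown for Fzd1 and Wnt2, which were higher in 8KR cells, and for the first of 2 starts of Tcf7l2, which was lower, so that the start regions of genes called in opposite directions can be read side by side. Each is printed 5′ to 3′ on the strand of its gene. Capitals mark the letters of a TATA box (TATAAA) or a GC box (GGGCGG, or CCGCCC where it lies on the other strand), wherever they fall in the window. Fzd1 is on the minus strand at chr5:4758217-4758466, Wnt2 on the minus strand at chr6:18030446-18030695 and Tcf7l2 on the plus strand at chr19:55741560-55741809.
Fzd1: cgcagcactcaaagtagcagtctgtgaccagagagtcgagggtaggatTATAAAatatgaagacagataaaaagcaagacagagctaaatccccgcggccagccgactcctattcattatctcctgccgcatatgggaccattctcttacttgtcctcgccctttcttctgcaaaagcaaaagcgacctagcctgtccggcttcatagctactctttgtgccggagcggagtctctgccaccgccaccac
Wnt2: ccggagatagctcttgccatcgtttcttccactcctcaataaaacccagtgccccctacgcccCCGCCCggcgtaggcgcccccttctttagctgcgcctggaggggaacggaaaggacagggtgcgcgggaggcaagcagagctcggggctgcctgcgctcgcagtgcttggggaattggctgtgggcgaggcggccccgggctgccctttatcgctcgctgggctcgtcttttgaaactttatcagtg
Tcf7l2: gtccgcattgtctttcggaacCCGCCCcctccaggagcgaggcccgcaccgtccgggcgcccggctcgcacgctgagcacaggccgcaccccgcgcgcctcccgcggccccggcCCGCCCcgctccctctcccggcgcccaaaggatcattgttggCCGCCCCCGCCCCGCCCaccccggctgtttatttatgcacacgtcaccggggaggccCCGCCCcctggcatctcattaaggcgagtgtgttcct
The window of Fzd1 was 51.2% G and C with 1 TATA box, that of Wnt2 was 63.6% with 1 GC box, and that of Tcf7l2 was 72.8% with 6 GC boxes, of which a pair overlapped by 1 base. The second start of Tcf7l2 had a window of 40.8% G and C with 1 TATA box on the other strand. TCF/LEF motifs (CTTTGAT or CTTTGAA, both strands) were in none of these 4 windows, in 3 of the 50 promoters found for 41 of the Wnt genes (6%) and in 7.48% of the 32851 promoters of the table. GC boxes were in 33 of the 50 Wnt gene promoters (66%) and in 32.7% of all promoters, and the TATA box letters in 10 of them (20%) and in 12.4% of all. A match was counted at any position in the window and on either strand, so the counts do not tell where a match lies relative to the start. The letters describe the windows and show no binding.

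Among the 19 ligands, only Wnt2 passed the test (5.26%, close to the 5.39% of all tested genes). The arrays of 2 ligands (10.5%) did not overlap, against 29.7% of all tested genes. Wnt2, a ligand best known from lung and placental development, had 4.17, 4.0 and 4.01 on the 8KR arrays and 3.56, 3.53 and 3.68 on the wild type arrays. All 8KR arrays were above all wild type arrays, although both groups were low. The difference was 0.47 on the log2 scale (SE 0.09, 95% interval 0.25 to 0.69), a 1.39-fold rise in intensity with an adjusted p of 0.0444 by limma, close to the threshold. The other 18 ligands had differences between -0.34 and 0.26 and none was called, and the median of all 19 was -0.03. Wnt4, the brightest ligand probe set, had 5.17, 5.02 and 5.20 in 8KR cells and 5.02, 5.16 and 5.29 in wild type cells, so that the groups overlapped (difference -0.03, 95% interval -0.27 to 0.22). Its second, dimmer probe set gave a difference of 0.14 and overlapped too. Wnt5a, the main ligand of the branches without β-catenin, had 4.87, 4.48 and 4.53 in 8KR cells and 5.33, 4.85 and 4.72 in wild type cells. Both groups spread widely for this gene, and its interval ran from -0.81 to 0.13 (adjusted p = 0.398, limma). For Wnt9a the 8KR arrays were all above the wild type arrays, at 5.04, 5.33 and 4.95 against 4.88, 4.86 and 4.86, but the test was not passed (difference 0.24, adjusted p = 0.315). Wnt4 and Wnt9a were the only ligands with a group mean above 5.0. How much of a change the arrays could leave unseen differed between ligands. For Wnt10b, with 4.34, 4.33 and 4.38 in 8KR cells and 4.37, 4.40 and 4.49 in wild type cells, the interval was narrow, from -0.25 to 0.11. For Wnt8a, with 3.66, 3.32 and 4.15 in 8KR cells and 3.49, 3.40 and 3.87 in wild type cells, it was wide, from -0.45 to 0.70. Wnt1 and Wnt3a, ligands that act mainly through β-catenin, had intervals of -0.27 to 0.43 and -0.57 to 0.21.

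The Frizzled receptors, the seven-pass membrane proteins that bind Wnt, were mostly on the higher side in 8KR cells: 8 of 10 differences were above 0, the median was 0.31, and 2 genes were called higher and none lower. Over all tested genes 8876 of 17145 differences were above 0, the median was 0.01, and 2.33% were called higher and 3.06% lower. Fzd2 had 8.85, 8.60 and 8.83 in 8KR cells and 8.32, 8.20 and 8.26 in wild type cells. Its groups were clearly apart, and it rose by 0.50 (SE 0.10, 95% interval 0.27 to 0.73), or 1.41-fold, with an adjusted p of 0.0463 by limma. Fzd1 had 7.48, 7.36 and 7.67 in 8KR cells and 6.75, 6.86 and 6.72 in wild type cells. The lowest 8KR array was above the highest wild type array, and the rise was 0.73 (SE 0.10, 95% interval 0.47 to 0.98), or 1.65-fold (adjusted p = 0.0213, limma). Fzd7, which belongs to the same subfamily as Fzd1 and Fzd2, had 7.01, 7.34 and 7.29 in 8KR cells and 6.58, 6.89 and 6.88 in wild type cells, again without overlap. Its difference of 0.43 (95% interval 0.11 to 0.76) had an unadjusted p under 0.05 but an adjusted p of 0.146. Fzd6, a receptor known from hair and tissue polarity in mice, was similar, with 5.56, 5.71 and 5.30 in 8KR cells against 5.18, 4.91 and 5.15 in wild type cells (difference 0.44, 95% interval 0.10 to 0.77, adjusted p = 0.151). Fzd8 went the other way. It had 4.69, 4.60 and 5.24 in 8KR cells and 5.45, 5.15 and 5.51 in wild type cells, with the highest 8KR array inside the wild type range (difference -0.53, 95% interval -1.0 to -0.05, adjusted p = 0.208). The remaining receptors, Fzd3, Fzd4, Fzd5, Fzd9 and Fzd10, had differences of -0.06 to 0.37 and were not called. Among them only Fzd5 had groups that did not overlap, at 5.24, 5.28 and 5.26 in 8KR cells against 4.99, 5.18 and 5.14 in wild type cells (95% interval -0.04 to 0.35). Averaged over the 10 receptors, the level per array was 5.78, 5.80 and 5.90 in 8KR cells and 5.60, 5.58 and 5.60 in wild type cells, and the groups did not overlap. This average includes the 2 called receptors, and of all tested genes taken singly 29.7% did not overlap. The same average over the coreceptors and alternative receptors was apart in the other direction, by a small margin, at 6.27, 6.34 and 6.34 in 8KR cells and 6.43, 6.43 and 6.35 in wild type cells. With quantile normalization or median centring the receptors' median was 0.29 or 0.28, and 8 of 10 stayed above 0. Fzd10os had a difference of -0.00, with overlapping groups.

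None of the 5 coreceptors and alternative receptors was called by limma, where 5.39% of all tested genes were. An unadjusted p under 0.05 was reached by 2 of the 5, and by 21.8% of all tested genes. Lrp5, a coreceptor that is phosphorylated when Wnt binds, had 5.99, 6.04 and 6.10 in 8KR cells and 5.92, 5.66 and 5.77 in wild type cells. The groups did not overlap, but the difference of 0.26 (95% interval 0.03 to 0.49) had an adjusted p of 0.202. Its partner Lrp6 had 7.17, 7.35 and 7.40 in 8KR cells and 7.34, 7.21 and 7.31 in wild type cells, a difference of 0.02 (95% interval -0.20 to 0.24) whose sign turned with median centring. Ryk, a Wnt receptor with an inactive kinase domain, had 9.16, 9.19 and 9.22 in 8KR cells and 9.54, 9.58 and 9.41 in wild type cells. Here every 8KR array was below every wild type array, and the replicates were close (difference -0.32, 95% interval -0.51 to -0.13, adjusted p = 0.0854, limma). Ror1 and Ror2, receptor tyrosine kinases that bind Wnt5a, had differences of -0.15 and -0.26 with overlapping groups.

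The secreted inhibitors held the largest rise and one of the 3 falls among the Wnt genes. Dkk3, a Dickkopf family member that does not act through Lrp5 and Lrp6 as Dkk1 does, had 5.48, 5.38 and 5.68 in 8KR cells and 4.05, 4.09 and 4.34 in wild type cells. The groups were more than 1 log2 unit apart at their nearest arrays. Its mean was 5.51 ± 0.15 in 8KR cells and 4.16 ± 0.16 in wild type cells (SD, n = 3 each), a rise of 1.35 (SE 0.12, 95% interval 1.06 to 1.65) or 2.55-fold, with an adjusted p of 0.00591 by limma. Sfrp1, a soluble protein with a Frizzled-like domain that binds Wnt, changed in the opposite direction, with 4.10, 4.05 and 4.15 in 8KR cells and 5.27, 4.90 and 4.82 in wild type cells. The 8KR arrays were tightly grouped and lower than every wild type array. Its mean was 4.10 ± 0.05 in 8KR cells and 5.0 ± 0.24 in wild type cells (SD, n = 3 each), and it fell by 0.90 (SE 0.13, 95% interval -1.22 to -0.58; adjusted p = 0.0224, limma), with wild type cells at 1.87 times the 8KR intensity. Sfrp5, of the same family, had 3.45, 3.74 and 3.67 in 8KR cells and 3.99, 3.98 and 3.89 in wild type cells. Both groups were low and apart, with a difference of -0.33 (95% interval -0.57 to -0.09) and an adjusted p of 0.135. The 6 other tested inhibitors, Dkk1, Dkk2, Dkk4, Sfrp2, Sfrp4 and Wif1, had differences between -0.23 and 0.05 and none was called. Dkk2 was the one of them without overlap, at 4.58, 4.64 and 4.72 in 8KR cells against 4.73, 4.97 and 4.93 in wild type cells (adjusted p = 0.262). Dkk1, the inhibitor that binds Lrp5 and Lrp6, had 3.55, 3.63 and 3.91 in 8KR cells and 3.77, 3.75 and 3.71 in wild type cells, with the wild type values inside the 8KR range. Of the 9 tested inhibitors 7 had differences below 0, and their median was -0.21. Over all tested genes 8269 of 17145 differences were below 0, and the median was 0.01. Only 1 of the 9 had a group mean above 5.0. Averaged over the 9, the level per array was 4.15, 4.03 and 4.12 in 8KR cells and 4.23, 4.15 and 4.17 in wild type cells, so the groups met at this precision.

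**Figure D2:**
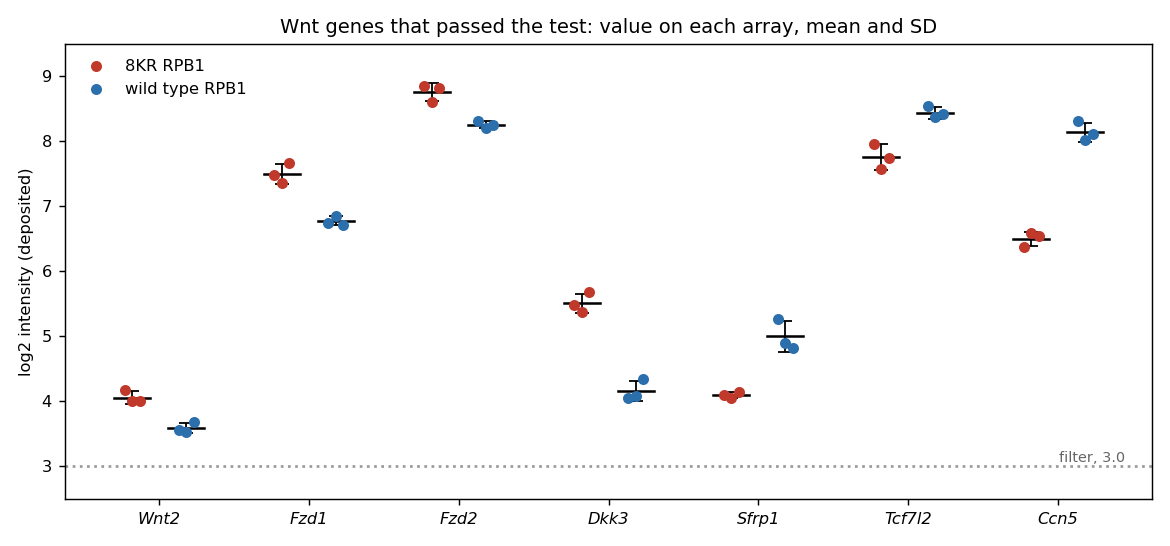
Log2 intensity on each array for the 7 called Wnt genes (red points: 8KR, blue points: wild type, 3 arrays each; lines and bars: mean and SD; dotted line: the filter at 3.0). In each gene the groups do not overlap, and they are farthest apart in Dkk3 and Ccn5.

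In the R-spondin branch no gene passed limma's test and 1 of 6 had an unadjusted p under 0.05. Over all tested genes 5.39% were called and 21.8% reached that unadjusted p. The median difference of the 6 genes was 0.02, or -0.01 with either other scaling. Lgr4, a receptor for R-spondins, came closest, with 4.99, 5.02 and 4.88 in 8KR cells and 5.96, 5.54 and 5.39 in wild type cells. The groups did not overlap, and the wild type arrays were the more spread (difference -0.67, 95% interval -1.05 to -0.28, adjusted p = 0.0762, limma). Znrf3, a ubiquitin ligase that removes Frizzled receptors from the cell surface, had 5.67, 5.86 and 5.53 in 8KR cells and 5.93, 5.94 and 5.79 in wild type cells (difference -0.20, adjusted p = 0.384). Its relative Rnf43 had 3.97, 4.83 and 4.41 in 8KR cells and 3.95, 4.05 and 3.88 in wild type cells, so that only part of the 8KR arrays stood above (difference 0.44, adjusted p = 0.334). Rspo1, Rspo2 and Rspo3 had differences of 0.04, 0.25 and -0.00.

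None of the 7 cytoplasmic regulators passed limma's test either, where 5.39% of all tested genes did. Of the 7, 2 had an unadjusted p under 0.05, against 21.8% of all tested genes. Ctnnb1, which encodes β-catenin, had 9.40, 9.30 and 9.22 in 8KR cells and 9.59, 9.54 and 9.61 in wild type cells. Every 8KR array was below every wild type array, but the distance was small (difference -0.27, 95% interval -0.47 to -0.08, adjusted p = 0.13, limma). Axin1, the scaffold of the complex that degrades β-catenin, had 6.80, 6.68 and 6.72 in 8KR cells and 6.25, 6.56 and 6.06 in wild type cells. Its 8KR arrays were all above its wild type arrays, which varied more (difference 0.44, 95% interval 0.11 to 0.78, adjusted p = 0.148). Axin2, a target gene widely used as a readout of β-catenin signalling, had 4.35, 4.12 and 4.21 in 8KR cells and 3.94, 4.11 and 4.16 in wild type cells. The groups overlapped, and the interval of the difference ran from -0.09 to 0.40 around 0.16 (adjusted p = 0.465). Apc, Gsk3b, Nkd1 and Nkd2 had differences of -0.03, 0.06, -0.04 and 0.01. The median of these 7 genes was 0.01 and turned to -0.02 with quantile normalization or median centring, as did the sign of Nkd2.

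Of the TCF/LEF factors, the DNA-binding partners of β-catenin, Tcf7l2 was lower in 8KR cells. It had 7.96, 7.57 and 7.74 on the 8KR arrays and 8.54, 8.37 and 8.42 on the wild type arrays. No arrays overlapped, and it fell by 0.69 (SE 0.12, 95% interval -0.98 to -0.39; adjusted p = 0.0365, limma), with wild type cells at 1.61 times the 8KR intensity. Lef1 had 5.95, 6.08 and 6.16 in 8KR cells and 5.95, 5.79 and 5.90 in wild type cells, with the lowest 8KR array level with the highest wild type array at this precision (difference 0.18, 95% interval -0.04 to 0.40, adjusted p = 0.337). Tcf7l1, mostly a repressor, had a difference of 0.08 with overlapping groups.

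The largest change among the Wnt genes was in Ccn5, which was first found as a transcript induced by Wnt1 in mouse mammary cells and encodes a secreted matricellular protein. Its values were 6.37, 6.59 and 6.54 in 8KR cells and 8.31, 8.02 and 8.11 in wild type cells. The highest 8KR array was more than 1 log2 unit below the lowest wild type array. The mean was 6.50 ± 0.11 in 8KR cells and 8.14 ± 0.15 in wild type cells (SD, n = 3 each), and it fell by 1.64 (SE 0.11, 95% interval -1.91 to -1.38; adjusted p = 0.00246, limma), with wild type cells at 3.12 times the 8KR intensity. Ccn4, found in the same screen, had 6.94, 6.93 and 7.01 in 8KR cells and 7.06, 6.94 and 7.01 in wild type cells. Those groups overlapped almost fully (difference -0.04, 95% interval -0.22 to 0.14).

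To place these genes in the wider pathway, 103 other tested Wnt pathway genes were described in 7 lists. Of these, 6 were called higher in 8KR cells and 3 lower (8.74% called, against 5.39% of all tested genes, of which 2.33% were higher and 3.06% lower). The arrays of 41 (39.8%) did not overlap, against 29.7% of all tested genes, and the median difference was -0.01. These lists were chosen with earlier results of these data known, so the shares are a description and no test of the pathway. The lists were also brighter, with 74 of the 103 at a group mean above 5.0, against 9882 of all 17145 tested genes. The 14 tested genes listed as other secreted modulators, some of whose proteins stay on the cell surface, held both large falls. Gpc4, a heparan sulfate proteoglycan of the cell surface that binds Wnt, had 4.49, 4.28 and 4.58 in 8KR cells and 7.37, 7.32 and 6.92 in wild type cells, and Sulf2, a sulfatase that trims heparan sulfate and frees bound Wnt, had 4.28, 4.23 and 4.08 in 8KR cells and 6.95, 6.74 and 6.95 in wild type cells. Both genes were far below wild type on every 8KR array, with differences of -2.75 for Gpc4 (adjusted p = 0.0015, limma) and -2.68 for Sulf2 (adjusted p = 5.04e-04). In the same list Apcdd1, a membrane-bound inhibitor of Wnt, rose by 0.58 (adjusted p = 0.0215). Among 15 planar cell polarity genes the median was 0.01, and the arrays of 2 (13.3%) did not overlap, against 29.7% of all tested genes. Of the 15, 2 rose and none fell, where 2.33% of all tested genes were called higher and 3.06% lower: Vangl2, a core polarity protein, by 0.60 (adjusted p = 0.0403) and Daam2, a formin that binds Dishevelled. Daam2 had 7.21, 7.17 and 7.09 in 8KR cells and 5.70, 5.37 and 5.63 in wild type cells, a rise of 1.59 (adjusted p = 0.00249). One of 7 other receptors rose, the Wnt-binding pseudokinase Ptk7 (by 0.83, adjusted p = 0.0413), and 1 of 24 genes of the Dishevelled and destruction complex list, the casein kinase Csnk1a1 (by 0.44, adjusted p = 0.0316).

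The commonly cited target genes had no common direction, with 1 of 19 called higher, 1 called lower and a median of -0.03. Over all tested genes 2.33% were called higher and 3.06% lower. The arrays of 10 of the 19 (52.6%) did not overlap, 5 in each direction, against 29.7% of all tested genes. Vegfa, a growth factor of blood vessels, rose by 0.75 (adjusted p = 0.0241, limma), and Id2, an inhibitor of basic helix-loop-helix factors, fell by 0.77 (adjusted p = 0.028). Both are also regulated by many signals other than Wnt. Myc had 10.32, 10.21 and 10.19 in 8KR cells and 10.09, 10.13 and 10.05 in wild type cells, without overlap but not called (difference 0.15, adjusted p = 0.338). Ccnd1, which encodes cyclin D1, had 10.17, 10.16 and 10.31 in 8KR cells and 10.48, 10.19 and 10.20 in wild type cells, with overlap (difference -0.08, 95% interval -0.34 to 0.19). None of the 6 genes of ligand processing and secretion and none of the 18 nuclear partners was called by limma, where 5.39% of all tested genes were. An unadjusted p under 0.05 was reached by 1 of the 6 and 7 of the 18, where 21.8% of all tested genes reached it. The arrays did not overlap for 1 of the 6 (16.7%) and 8 of the 18 nuclear partners (44.4%), against 29.7% of all tested genes. Closest among these partners was Tbl1xr1, an exchange factor for corepressors, with a difference of -0.48 and an adjusted p of 0.052.

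**Figure D3:**
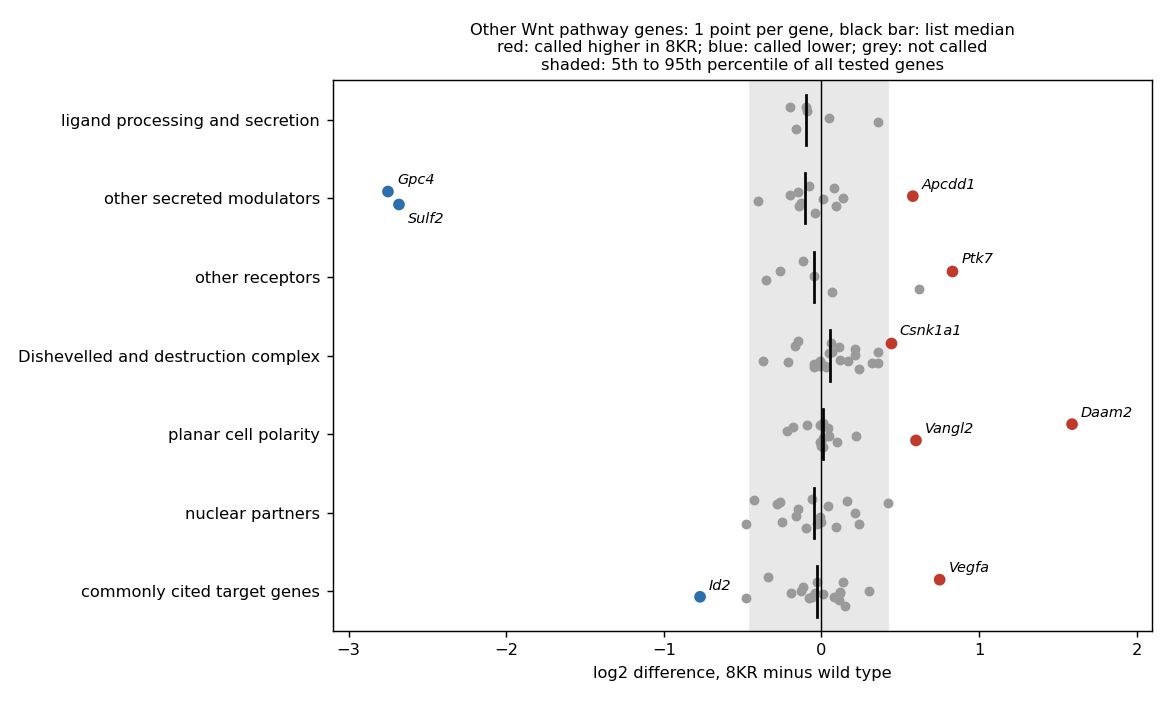
Log2 difference between 8KR and wild type cells for the 103 other tested Wnt pathway genes, 1 point each, by list (black bars: list medians; shaded band: 5th to 95th percentile of all tested genes). The 6 genes called higher and the 3 called lower are named, and the list medians lie between -0.11 and 0.06.

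The 7 calls differed in how far they rested on single arrays and settings. Leaving out each of the 6 arrays in turn, Dkk3 and Ccn5 were called every time, with adjusted p of 0.0194 to 0.0345 for Dkk3 and 0.014 to 0.0196 for Ccn5. Sfrp1 was called without wild type replicate 1 or 3 only (adjusted p over the 6 fits 0.0383 to 0.0859), Fzd1 without 8KR replicate 2 only (0.0459 to 0.08) and Tcf7l2 without 8KR replicate 1 only (0.0489 to 0.115). Fzd2 and Wnt2 were called in none of these 6 fits (0.061 to 0.138 and 0.0905 to 0.13). The differences themselves moved little, between 0.46 and 0.58 for Fzd2 and between 0.41 and 0.52 for Wnt2. On 5 arrays 274 to 293 of all genes were called, against 924 on 6 arrays. Ryk and Lgr4 were called when probe sets were limited to a group mean above 5.0. No direction of the 18 Wnt genes followed through the alternatives was reversed. Of these 18, 16 had been taken for an unadjusted p under 0.05 in the reported fit, beside Axin2 and Lef1, so a reversal was unlikely from the start.

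**Figure D4:**
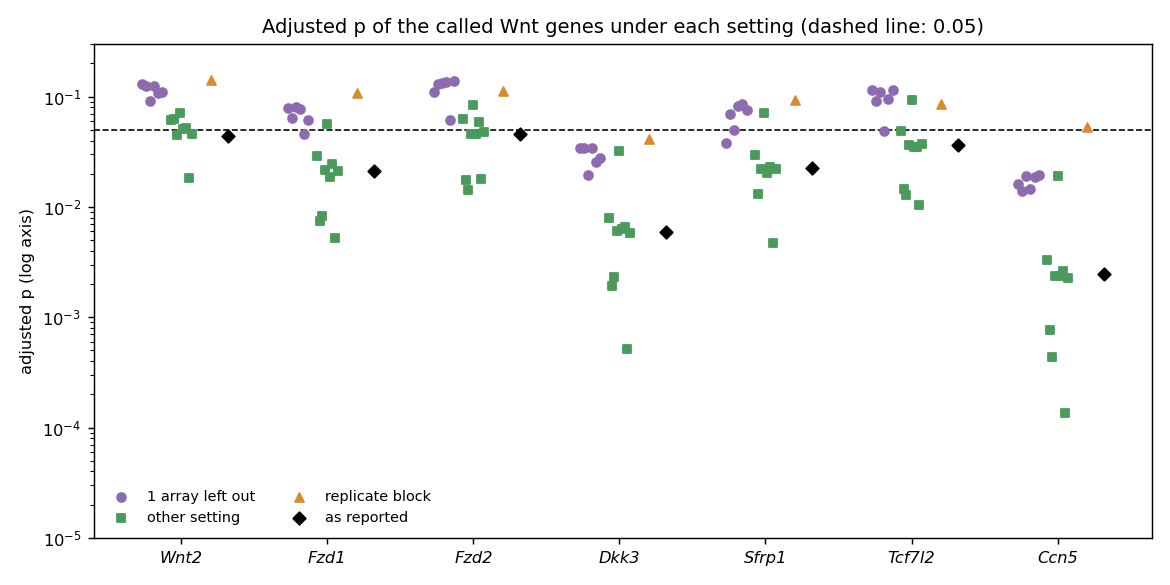
Adjusted p (log axis) of the 7 called Wnt genes as reported and under each alternative, including the 6 fits with 1 array left out; the dashed line is the threshold of 0.05. Dkk3 lies below the line throughout and Ccn5 in all but the fit with the replicate number as a block (0.0529), whereas points of the other 5 genes fall on both sides.

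The genes next to the called Wnt genes were also examined, taking the 5 nearest tested genes on each side in RefSeq gene order. Around Dkk3 on chromosome 7, Ccn5 on chromosome 2, Sfrp1 on chromosome 8, Fzd2 on chromosome 11 and Wnt2 on chromosome 6, the median difference of the 10 neighbours lay between -0.07 and 0.09. Of these neighbours, 1 near Dkk3 was called higher and 1 near Wnt2 was called lower, where 5.39% of all tested genes were called. Differences above 0 were found in 7 of 10 neighbours of Dkk3, 7 of Wnt2 and 6 of Fzd2, which all rose, and in 8 of Sfrp1, which fell. Near Ccn5, which fell, 8 of 10 were below 0. Around Fzd1 on chromosome 5 the median of the neighbours was -0.30, with 8 of 10 below 0, while Fzd1 itself rose. Of these 10, 2 were called lower (Gtpbp10 and Cfap69), where 3.06% of all tested genes were called lower. Around Tcf7l2 on chromosome 19 the median was also -0.30, with 9 of 10 below 0 and none called, the same sign as Tcf7l2.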

How the data were processed

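RNA of NIH/3T3 cells was measured on Affymetrix Mouse Gene 1.0 ST arrays, 3 of 8KR and 3 of wild type cells, grouped by the genotype in the labels. The deposited values are log2 intensities that the authors normalized before deposit. Affymetrix Power Tools 1.12.0 is credited by the submitters' processing notes. Normalization method and genome build were not given in the sources used here. Dim probe sets were still in the table, so the filter of the study's methods, a group mean above 3.0, was applied here and left 28543 of 35557 probe sets.

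Differences were tested in R 4.3.3 by the functions lmFit and eBayes of limma 3.58.1, on all 6 arrays and without covariates, with Benjamini-Hochberg adjustment over the probe sets tested and a threshold of 0.05. Where a gene had several probe sets, the brightest over the 6 arrays was used. Symbols came from the platform annotation, and older symbols were matched through the RefSeq gene table of GRCm38.p6, which also gave the order of genes. Promoters came from RefSeq on that build. Fold changes are ratios of intensity. The number of arrays limits the precision. The fit was tested on simulated data with known changes.

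The Wnt genes, the lists and the tests were chosen with earlier results of these data known. Every Wnt gene was accounted for by role, with values on each array for those called, those with an unadjusted p under 0.05, the brightest of each role, and Axin2, Ctnnb1 and Lef1. Of the other lists, called genes, Myc and Ccnd1 are named, while Wnt1, Wnt3a, Wnt5a, Wnt8a, Wnt9a, Wnt10b, Fzd5, Dkk1, Dkk2, Lrp6, Rnf43, Ccn4 and Tbl1xr1 were added after their values were seen. The 17 alternatives were other filters, variance models, scalings, probe set choices, a stricter threshold, the replicate number as a block, and leaving out each array.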

Additional observations from a re-analysis of the deposited data

How the results depend on the processing

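Over the 18 Wnt genes followed through the alternatives, 302 differences were recomputed. Of these 249 kept their side of the threshold, 48 were no longer called, 5 became called and 0 turned direction. Of the 18 genes, 16 were followed because of an unadjusted p under 0.05 in the reported fit, so turns were unlikely from the start. Many of the 249 came from genes not called as reported, and several alternatives left the difference itself unchanged. Lrp6 and Nkd2, not among the 18, turned direction with median centring. The number of Wnt genes called higher in 8KR cells, 4 as reported, was 2 without the filter and with median centring, 1 with the ordinary test per probe set, 1 at an adjusted p under 0.01, and 1 to 2 when 1 array was left out. The number called lower, 3 as reported, was 5 with an intensity trend (Ryk and Ctnnb1 added), 1 with the ordinary test, 1 at an adjusted p under 0.01, and 1 to 2 when 1 array was left out. Of the other pathway genes, 6 higher as reported became 1 at an adjusted p under 0.01 and 1 to 2 when 1 array was left out, and 3 lower became 6 with a group mean above 5.0, 6 with an intensity trend and 5 with single-symbol probe sets. Over all genes, 924 calls became 1736, 1528 and 1638 under those settings, 210 at an adjusted p under 0.01, and 274 to 293 when 1 array was left out. With the replicate block, the number of Wnt genes called was 1 higher (Dkk3) and 0 lower. That of other pathway genes called higher was 1, and that of all genes was 63. Deviations from the group means correlated at -0.0113, 0.00858 and -0.000484 between arrays of the same number, and 2 of 6 arrays correlated best with their own number. The labels do not say whether arrays of the same number were handled together, and these correlations cannot settle it. The cause of the changes in the counts was not tested, apart from the smaller number of arrays or probe sets by construction. With 3 arrays a group, the 95% intervals bound what a difference that was not called could be.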
